A study of Homo sapiens with 11 samples.

Results

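The 49 genes described here encode parts of the machinery that copies DNA in S phase. They were taken by name from a fixed list, chosen with earlier results of these data known. Each was read from 1 probe set of the Affymetrix HG-U133 Plus 2 array. This was the one with the highest mean over the 11 arrays among those annotated to that gene alone. On at least 1 array each of the 49 lay at or above the 60th percentile of all probe sets, the condition for being tested, and so belong to the 12299 genes tested of 19775 with such a probe set. The cells were A673sh, 1 derivative of the A673 Ewing sarcoma cell line that carries a doxycycline-inducible shRNA against EWS-FLI1, the fusion of EWS with the ETS transcription factor FLI1 that drives this tumour. Cells transfected with sh-scrambled or sh-FOXO1 were profiled without doxycycline and after 48 h with doxycycline at 1 µg/ml, on 2 arrays in each of these 4 groups. A further 3 groups of 1 array each, all without doxycycline, held cells transfected with the empty vector or with versions of the forkhead factor FOXO1 in which the sites phosphorylated by AKT (AKT-resistant) or by CDK2 (CDK2-resistant) were replaced. Transfection was transient, and the labels do not name the FOXO1 shRNA. Every group carried the inducible construct and no cells without it received doxycycline, so that effects of EWS-FLI1 loss and of doxycycline itself cannot be told apart.

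Replication is prepared in G1, when the origin recognition complex (ORC), CDC6 and CDT1 load the MCM2-7 helicase onto DNA. At the start of S phase the kinase CDC7 with its partner DBF4, together with MCM10, CDC45 and the GINS complex, turns the loaded helicase into a moving fork. There primase and the polymerases alpha, delta and epsilon synthesise DNA, PCNA and its loader RFC hold the polymerases in place, RPA covers single strands, FEN1 and LIG1 join Okazaki fragments, and ribonucleotide reductase and thymidylate synthase supply the precursors. Transcription of many of these genes follows the RB-E2F pathway and rises in dividing cells. In bulk RNA, fewer cells in S phase and less of these transcripts per cell cannot be told apart.

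Levels are given as the deposited log2 values and differences as log2 fold changes from limma, ± the standard error of the fit, with p-values adjusted by Benjamini-Hochberg over all 12299 genes. A gene was called when the adjusted p was under 0.05 and the log2 fold change was past 1 for EWS-FLI1 knockdown, or past 0.7 for FOXO1 silencing and for the interaction. Where genes that fell are counted, the count is of genes called lower. The labels do not state separate cultures, so p-values measure the spread between these arrays, which may be technical.

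The targeted genes moved with the labels. FLI1, whose probe set reads the part of the gene kept in the fusion transcript as well as FLI1 itself, stood at 8.84 and 8.71 in sh-scrambled cells and at 6.92 and 6.93 after doxycycline (−1.85 ± 0.10, limma adjusted p = 2.09e-07). In sh-FOXO1 cells FLI1 went from 8.84 and 8.56 to 7.17 and 7.25 (−1.49 ± 0.10, limma adjusted p = 1.14e-06). With doxycycline it was thus higher with sh-FOXO1 than with sh-scrambled (0.29, limma adjusted p = 0.0461). FOXO1 stood at 5.86 and 5.81 in sh-scrambled cells, 7.35 and 7.04 after doxycycline, 4.97 and 4.80 in sh-FOXO1 cells, and 5.76 and 5.75 in sh-FOXO1 cells with doxycycline. With the mutants it was 8.30 (AKT-resistant) and 7.06 (CDK2-resistant) against 5.84 with empty vector. All 7 Ewing sarcoma markers reached the 60th percentile, XG on 7 arrays and the others on all 11. None of 3 blood and none of 3 epithelial markers did on any array, and of 3 endothelial markers TEK did on 6 arrays (5.40 to 6.05). Of these other markers, VWF also lay at or above the array median on 11 arrays, KRT5 on 10 and CD3E on 7. Over the 49 genes the 2 arrays of a group differed by a median of 0.06 to 0.11.

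EWS-FLI1 knockdown in sh-scrambled cells lowered most of the 49 genes past the limit of 1. Of the 49 genes, 42 were called lower (limma) and 0 higher, beside 6.31% of all tested genes called lower and 6.98% called higher. The median log2 fold change was −1.49, or 2.80-fold lower, against −0.04 for all tested genes. All 49 values were below 0 with an adjusted p of at most 0.000706 (limma), and for all 49 both arrays with doxycycline were below both without it, which held for 43.1% of all tested genes. The changes ran from −2.51 for MCM10 to −0.44 for ORC5. Close to the limit of 1, POLE (−1.02), GINS3 (−1.03), RFC5 (−1.04) and POLD1 (−1.06) were called and LIG1 (−0.98) was not. A further GINS3 probe set gave −1.71, and 2 further RFC5 probe sets gave −2.02 and −1.91, so these genes lay near the limit by the probe set used.

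In sh-FOXO1 cells, a separate set of 4 arrays, the knockdown called 36 of the 49 lower and 0 higher, against 5.48% and 6.06% of all tested genes. The median was −1.24, or 2.36-fold lower, with a median of −0.05 over all tested genes and a range from −2.67 for RRM2 to −0.42 for LIG1. Again all 49 were below 0, with adjusted p of at most 0.0117 (limma). All 36 were among the 42 of the sh-scrambled cells, which is 100% of the former and 85.7% of the latter. Over all tested genes 569 were called lower in both, 84.4% of 674 and 73.3% of 776.

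**Figure D1:**
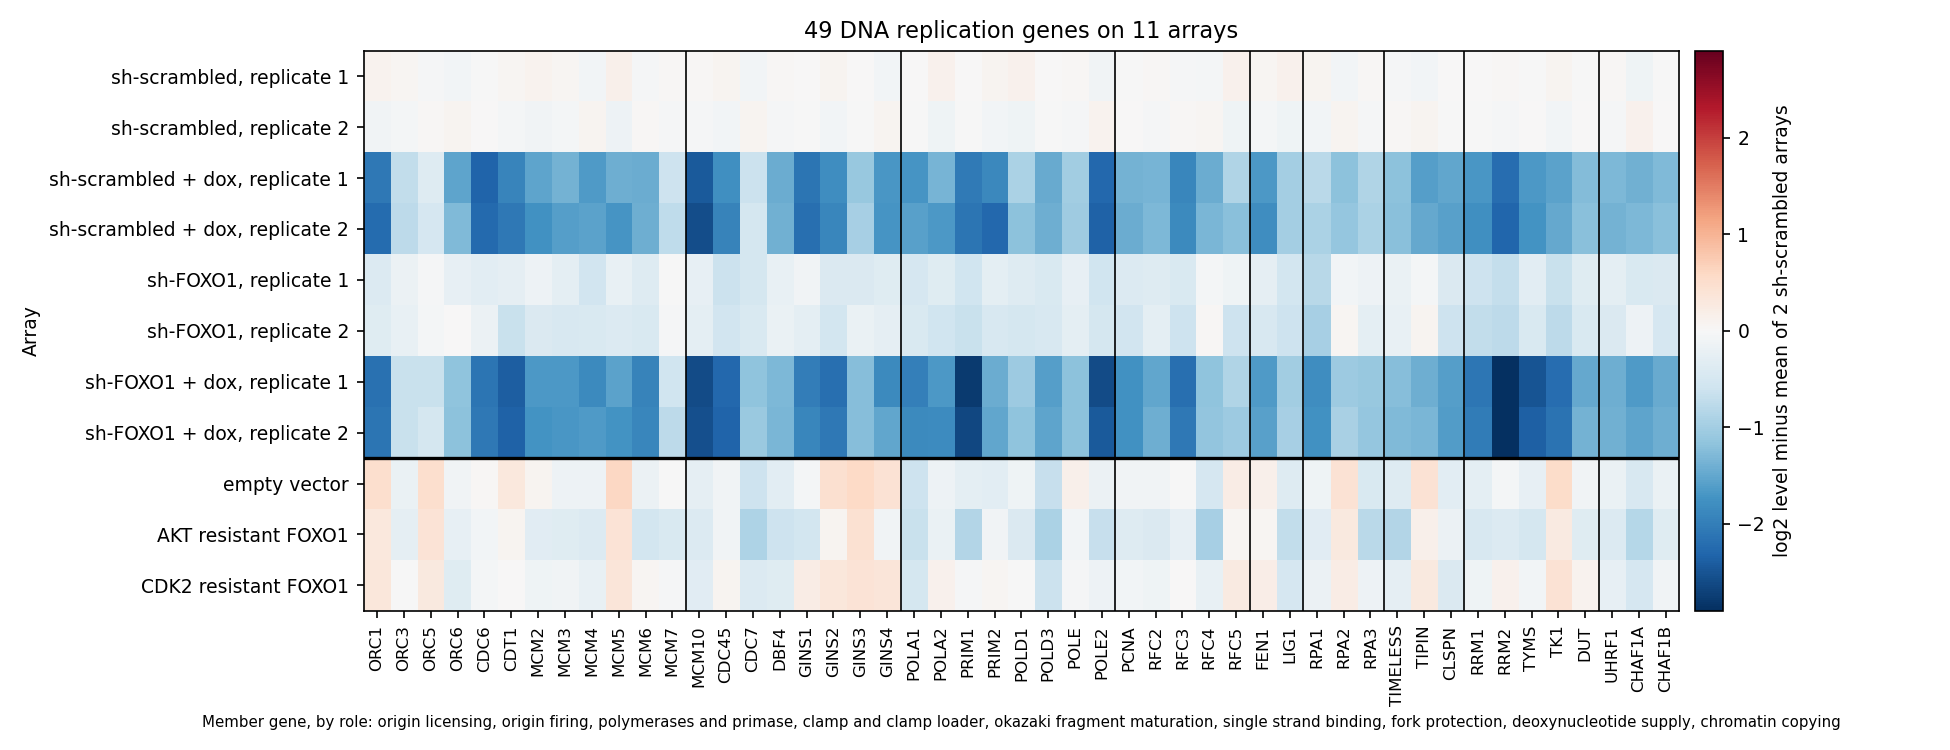
Colour gives the log2 level of each of the 49 genes (columns, grouped by role between the vertical lines) on each of the 11 arrays, minus the mean of the 2 sh-scrambled arrays for that gene. The 4 arrays with doxycycline are blue throughout, with gene medians between −1.45 and −1.63, the sh-FOXO1 arrays without doxycycline are pale blue (−0.35 and −0.45), and the arrays below the thick line are those of the plasmid transfections.

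Among the 12 origin licensing genes, 9 were called lower in both backgrounds, with medians of −1.52 and −1.32. CDC6, the loading ATPase, stood at 8.75 and 8.79 in sh-scrambled cells and at 6.44 and 6.52 with doxycycline (−2.29 ± 0.07, limma adjusted p = 1.05e-08). In sh-FOXO1 cells its levels were 8.45 and 8.59 without doxycycline and 6.64 and 6.70 with it (−1.85 ± 0.07). The groups did not overlap in either background. ORC1, the ORC subunit whose amount varies over the cell cycle in human cells, went from 7.45 and 7.26 to 5.28 and 5.12 (−2.16 ± 0.09, limma adjusted p = 3.69e-08), and in sh-FOXO1 cells from 6.97 and 7.01 to 5.19 and 5.23 (−1.77). It reached the 60th percentile on 7 of the 11 arrays, those without doxycycline, and with doxycycline lay near the array medians (5.14 to 5.17), so the size of its fall is limited by the low end of the scale. The loading factor CDT1 had −1.99 and −1.91. Of the helicase subunits, MCM2 to MCM6 fell in sh-scrambled cells, with values from −1.43 (MCM6) to −1.65 (MCM2).

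The 3 licensing genes that were not called were the same in both backgrounds. ORC3 stood at 9.56 and 9.47 without and 8.80 and 8.77 with doxycycline (−0.73 ± 0.07), and ORC5 at 8.75 and 8.80 against 8.39 and 8.28 (−0.44 ± 0.08), both in sh-scrambled cells. MCM7, the remaining helicase subunit, stood at 10.79 and 10.71 against 10.15 and 10.02 (−0.67 ± 0.08). These changes missed the limit of 1 and not the adjusted p, which was at most 0.000706 for the 3 genes (limma), and their values in sh-FOXO1 cells were −0.45, −0.53 and −0.64. There ORC3 stood at 9.34 and 9.30 against 8.87 and 8.86, ORC5 at 8.74 and 8.72 against 8.13 and 8.27, and MCM7 at 10.73 and 10.72 against 10.18 and 10.0. Other probe sets of MCM7 (−0.92) and ORC5 (−0.84) gave larger falls in sh-scrambled cells, also short of the limit.

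The origin firing factors included the gene that fell most. MCM10, which binds the activated helicase, stood at 10.07 and 10.0 in sh-scrambled cells and at 7.59 and 7.46 with doxycycline (−2.51 ± 0.07, limma adjusted p = 4.83e-09). In sh-FOXO1 cells it went from 9.80 and 9.75 to 7.45 and 7.48 (−2.31 ± 0.07), so that the levels with doxycycline overlapped between backgrounds. GINS1, a subunit of the GINS complex, went from 10.17 and 10.13 to 8.04 and 7.97 (−2.15 ± 0.08, limma adjusted p = 2.50e-08) and, in sh-FOXO1 cells, from 10.04 and 9.86 to 8.15 and 8.26 (−1.74). CDC45 (−1.86) and GINS2 (−1.85) also fell in sh-scrambled cells. The smallest change was that of CDC7, at 8.96 and 9.14 without and 8.43 and 8.55 with doxycycline (−0.56 ± 0.08, adjusted p = 0.000299, limma), and in sh-FOXO1 cells at 8.53 and 8.62 against 7.88 and 7.97, while its activating subunit DBF4 fell by 1.41. Of the 8 genes, 7 were called with sh-scrambled and 6 with sh-FOXO1, where GINS3 had −0.93.

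All 8 polymerase and primase genes fell in sh-scrambled cells, from POLE2 (−2.32) to POLE (−1.02), both subunits of polymerase epsilon. POLE2 stood at 8.92 and 9.11 without and at 6.73 and 6.67 with doxycycline (adjusted p = 2.75e-08, limma), and in sh-FOXO1 cells at 8.45 and 8.50 against 6.43 and 6.59 (−1.97). PRIM1, the catalytic subunit of primase, stood at 9.91 on both sh-scrambled arrays and at 7.85 and 7.79 with doxycycline (−2.09 ± 0.07, adjusted p = 1.77e-08, limma). In sh-FOXO1 cells PRIM1 started lower, at 9.33 and 9.27, and ended at 7.13 and 7.28, again −2.09. In that background POLD1 (−0.66) and POLE (−0.93), the catalytic subunits of polymerases delta and epsilon, were not called, which left 6 of 8. PRIM2, the large primase subunit, is given with the interaction below because the 2 backgrounds differed.

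Among the genes that act behind the fork, PCNA, the sliding clamp, went from 12.05 and 12.08 to 10.69 and 10.61 in sh-scrambled cells (−1.41) and by −1.28 in sh-FOXO1 cells. Of the clamp and its loader 5 of 5 and 4 of 5 genes fell, with RFC3 at −1.87 and RFC5 at −1.04 as the extremes in sh-scrambled cells and RFC5 at −0.59 in sh-FOXO1 cells. The smaller change of RFC5 rests on its probe set, since its other 2 probe sets gave −2.02 and −1.91 in sh-scrambled and −1.36 and −1.58 in sh-FOXO1 cells. The flap endonuclease FEN1 fell by 1.74 and 1.24. DNA ligase 1 (LIG1) stood at 8.53 and 8.27 against 7.43 and 7.42 (−0.98 ± 0.09), and in sh-FOXO1 cells at 7.87 and 7.81 against 7.40 and 7.44 (−0.42 ± 0.09), so that its levels with doxycycline overlapped between backgrounds. The single-strand binding subunits had the median nearest 0 of all roles in sh-scrambled cells (−0.89). RPA2 fell by 1.15 in sh-scrambled cells, RPA3 had −0.89 (10.46 and 10.38 against 9.54 and 9.51, and in sh-FOXO1 cells 10.27 and 10.14 against 9.33 and 9.30), RPA1 had −0.85, and 0 of the 3 were called in sh-FOXO1 cells (−0.89 to −0.99). The fork protection genes TIMELESS, TIPIN and CLSPN all fell in both backgrounds, with medians of −1.54 and −1.10. CLSPN, the adaptor claspin, reached the 60th percentile on 7 arrays, those without doxycycline.

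The 5 genes of deoxynucleotide supply all fell in both backgrounds. RRM2, the small subunit of ribonucleotide reductase, stood at 12.09 and 12.01 in sh-scrambled cells and at 9.85 and 9.76 with doxycycline (−2.25 ± 0.07, limma adjusted p = 1.25e-08). In sh-FOXO1 cells it went from 11.36 and 11.29 to 8.60 and 8.71 (−2.67 ± 0.07, limma adjusted p = 6.11e-09). The pair with both treatments was thus the lowest of all 11 arrays for RRM2. Its partner RRM1 fell by 1.73 and 1.41, and DUT, which keeps uracil out of DNA, by 1.23 and 1.03. Of the genes that copy chromatin with the DNA, UHRF1 (−1.34 and −1.06) and CHAF1A (−1.34 and −1.29), of the assembly factor CAF-1, fell in both backgrounds, while CHAF1B fell in sh-scrambled cells (−1.25) and just missed the limit in sh-FOXO1 cells.

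**Figure D2:**
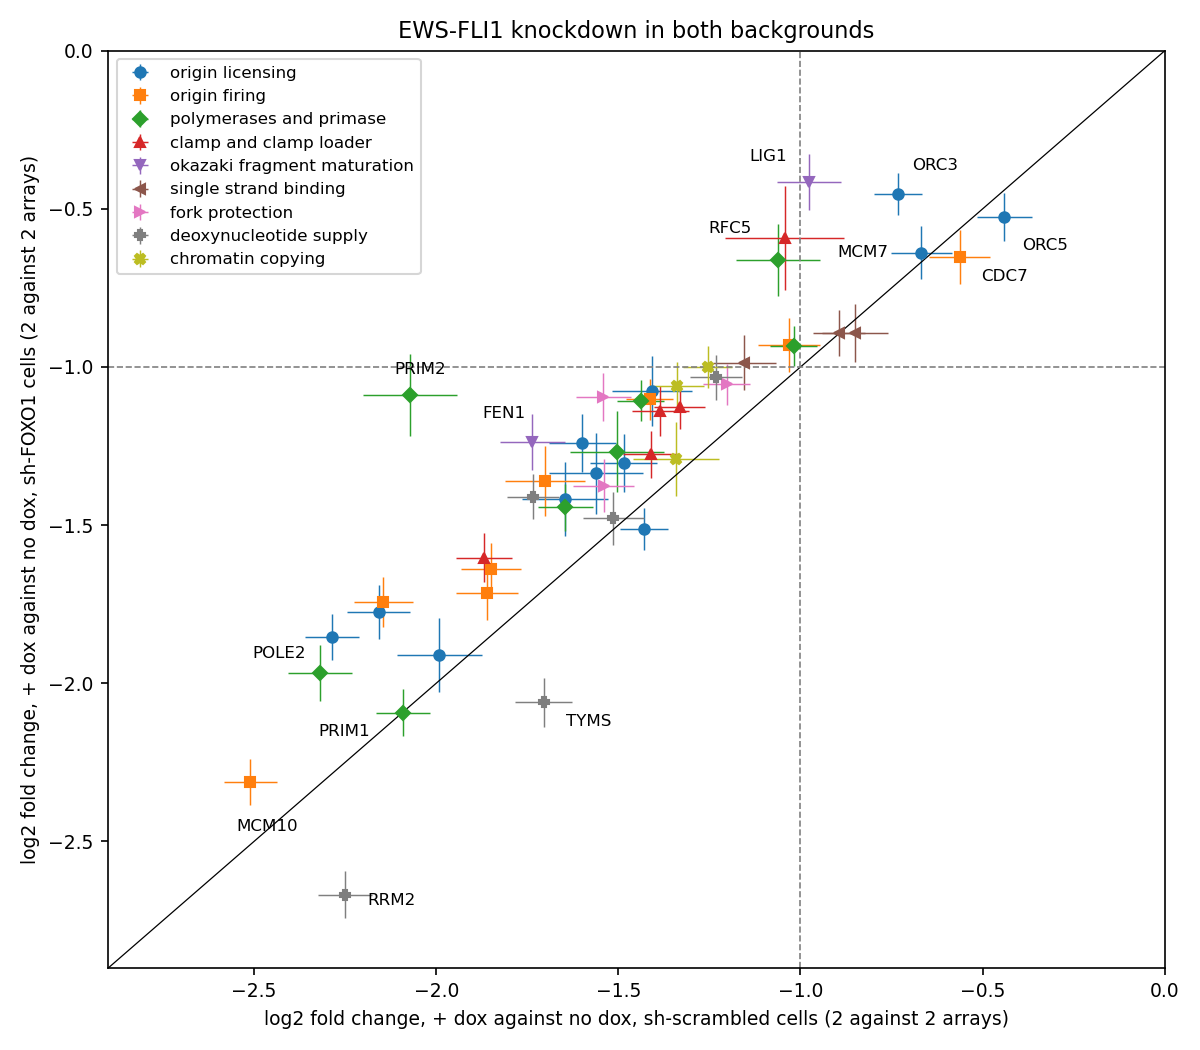
Each point is 1 of the 49 genes, with its log2 fold change after doxycycline with sh-scrambled (x axis) and with sh-FOXO1 (y axis), bars for the standard error of the fit, and symbols for its role. Dashed lines mark the limit of −1, and the solid line marks equal change. PRIM2 (−2.07 and −1.09) lies farthest above the line, RRM2 (−2.25 and −2.67) and TYMS (−1.70 and −2.06) lie below it.

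Because these genes fell together, their promoters are shown for those where a search found the letters of a known element. RefSeq (GRCh38.p14) gave promoters of 250 bases before and 50 after the start for 43 of the 49 genes, 59 promoters in all. E2F matches were taken as TTTCCCGC, TTTGGCGC, TTTGCCGC or TTTCGCGC on either strand. They were found in 24 of the 59 promoters (40.7%), of 23 genes, against 3.31% of all 35116 promoters, 4.78% of the promoters of tested genes and 6.51% of those of the other genes that fell with EWS-FLI1 knockdown in sh-scrambled cells. MCM6, PCNA, TYMS, CDT1 and GINS2 are printed because they cover licensing, firing, the clamp and precursor supply. MCM10, which fell most, and RPA1, whose fall with sh-FOXO1 is given further on, are printed because they had no E2F match. Both held CCAAT boxes (CCAAT on either strand), as did promoters of MCM6, PCNA and GINS2, where these are not marked. The stretches lie before the start at chr2:135876444-135876603 (minus strand), chr20:5126623-5126702 (minus), chr18:657573-657652 (plus), chr16:88803709-88803788 (plus), chr16:85688955-85689034 (minus), chr10:13161428-13161557 (plus) and chr17:1829925-1830004 (plus), each ending at the base next to the start. Capitals mark the E2F match in the first 5 and the CCAAT box in MCM10 and RPA1.
MCM6: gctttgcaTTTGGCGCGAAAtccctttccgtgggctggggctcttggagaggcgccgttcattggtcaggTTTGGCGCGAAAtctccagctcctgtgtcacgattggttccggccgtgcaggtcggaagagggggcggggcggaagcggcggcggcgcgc
PCNA: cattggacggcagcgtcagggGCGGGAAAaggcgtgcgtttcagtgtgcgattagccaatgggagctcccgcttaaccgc
TYMS: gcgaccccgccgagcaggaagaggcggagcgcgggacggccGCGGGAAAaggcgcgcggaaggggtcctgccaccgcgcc
CDT1: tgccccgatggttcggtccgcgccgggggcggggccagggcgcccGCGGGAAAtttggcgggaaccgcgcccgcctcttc
GINS2: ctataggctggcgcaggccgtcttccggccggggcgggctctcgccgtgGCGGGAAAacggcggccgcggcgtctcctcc
MCM10: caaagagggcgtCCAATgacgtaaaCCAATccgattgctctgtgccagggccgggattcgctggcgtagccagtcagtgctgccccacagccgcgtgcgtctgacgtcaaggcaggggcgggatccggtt
RPA1: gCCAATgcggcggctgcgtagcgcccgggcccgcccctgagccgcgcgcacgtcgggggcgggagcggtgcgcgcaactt

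MCM6 held 4 matches in overlapping pairs, read on both strands, that began at bases −152, −148, −90 and −86 from the start, and PCNA, TYMS, CDT1 and GINS2 held 1 each, at −59, −39, −35 and −31. CCAAT boxes were found in 52.5% of the 59 promoters, 34.5% of those of tested genes and 42.0% of those of the other genes that fell. The CHR element (TTTGAA or TTCGAA) was found in 6.78%, 12.1% and 22.2%, the ETS core CCGGAAGT in 5.08%, 7.19% and 4.65%, and the forkhead letters GTAAACA in 3.39%, 2.67% and 3.02%. The forkhead letters were in promoters of 1 gene, MCM7. Of 33 E2F matches, 1 overlapped another of these motifs. The 23 genes with an E2F match had a median change of −1.50 in sh-scrambled cells, and the 20 without one had −1.41. These are matches of letters and were not tested as binding sites.

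Without doxycycline, where EWS-FLI1 was present, the 49 genes were lower with sh-FOXO1 than with sh-scrambled by a small and broad amount. FOXO1 itself went from 5.86 and 5.81 to 4.97 and 4.80 there, under the array medians (5.14 to 5.17). The labels show no further FOXO1 shRNA, so loss of FOXO1 and other effects of the shRNA cannot be told apart. The question here is what sh-FOXO1 changes against sh-scrambled, without and with doxycycline. With doxycycline FLI1 was 0.29 higher with sh-FOXO1, so the EWS-FLI1 level may not be matched in that comparison. Of the 49 genes, 48 had a value below 0, against 47.9% of all tested genes. The median was −0.37, or 1.30-fold lower, with 0.01 over all tested genes, and for 44 of 49 both sh-FOXO1 arrays were below both sh-scrambled arrays, as for 29.5% of all tested genes. By the adjusted p alone 35 were lower and 0 higher (limma), beside 14.8% and 15.9% of all tested genes. With replicate number as a block the counts were 43 and 0, for which no share of all tested genes was taken. Past the limit of 0.7, 3 were called lower (RPA1, RRM2 and TK1) and 0 higher, beside 1.5% and 2.72%. That count was 1, RPA1, when either replicate 1 of sh-scrambled or replicate 2 of sh-FOXO1 was left out. The genes nearest 0 were TIPIN (0.00), RFC4 (−0.01), RPA2 (−0.02) and MCM7 (−0.02).

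With doxycycline, 35 of the 49 genes were below 0, against 50.4% of all tested genes, and the median was −0.13. RRM2, RPA1 and TYMS were called lower, 3 of 49 beside 2% of all tested genes, and 0 were called higher, beside 2.37%. By the adjusted p alone 14 were lower and 1, PRIM2, was higher (limma), beside 15.2% and 15.6% of all tested genes. With replicate number as a block in the fit the counts became 22 and 6, again without a share of all tested genes to set beside them. The 14 held all of RRM1, RRM2, TYMS and TK1 of precursor supply, together with CDT1, MCM6, CDC45, CDC7, GINS2, POLA1, PRIM1, PCNA, RFC3 and RPA1. The 2 comparisons share no array.

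RPA1, the large subunit of the single-strand binding protein RPA, had nearly the same decrease with sh-FOXO1 without and with doxycycline. It stood at 10.83 and 10.65 in sh-scrambled and at 9.94 and 9.78 in sh-FOXO1 cells without doxycycline (−0.88 ± 0.09, limma adjusted p = 0.000186). With doxycycline it stood at 9.97 and 9.82 against 8.95 and 8.99 (−0.93 ± 0.09, limma adjusted p = 0.000133). The sh-FOXO1 arrays without doxycycline thus overlapped the sh-scrambled arrays with it. A further RPA1 probe set gave −0.90 and −0.96, whereas RPA2 had −0.02 and 0.15 and RPA3 had −0.22 and −0.21.

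RRM2 was lower by 0.73 ± 0.07 without doxycycline (adjusted p = 0.000172, limma) and by 1.15 ± 0.07 with it (adjusted p = 1.56e-05, limma), from the levels given above, and a further probe set gave −0.74 and −0.92. TYMS, thymidylate synthase, stood at 11.95 and 11.97 in sh-scrambled, 11.65 and 11.51 in sh-FOXO1, 10.29 and 10.22 in sh-scrambled with doxycycline and 9.45 and 9.59 in sh-FOXO1 with doxycycline. Its difference was −0.38 without and −0.73 ± 0.08 with doxycycline, the latter with an adjusted p of 0.000194 (limma), and the call was lost (−0.67) without replicate 1 of sh-FOXO1 with doxycycline. TK1, the salvage thymidine kinase, stood at 8.94 and 8.76 in sh-scrambled and 8.21 and 8.09 in sh-FOXO1 cells, and at 7.30 and 7.38 against 6.63 and 6.71 with doxycycline. Its differences of −0.70 and −0.67 lay on either side of the limit. In all 3 genes the groups were ordered the same way, with sh-scrambled highest, then sh-FOXO1, then the doxycycline groups, and no groups overlapped.

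**Figure D3:**
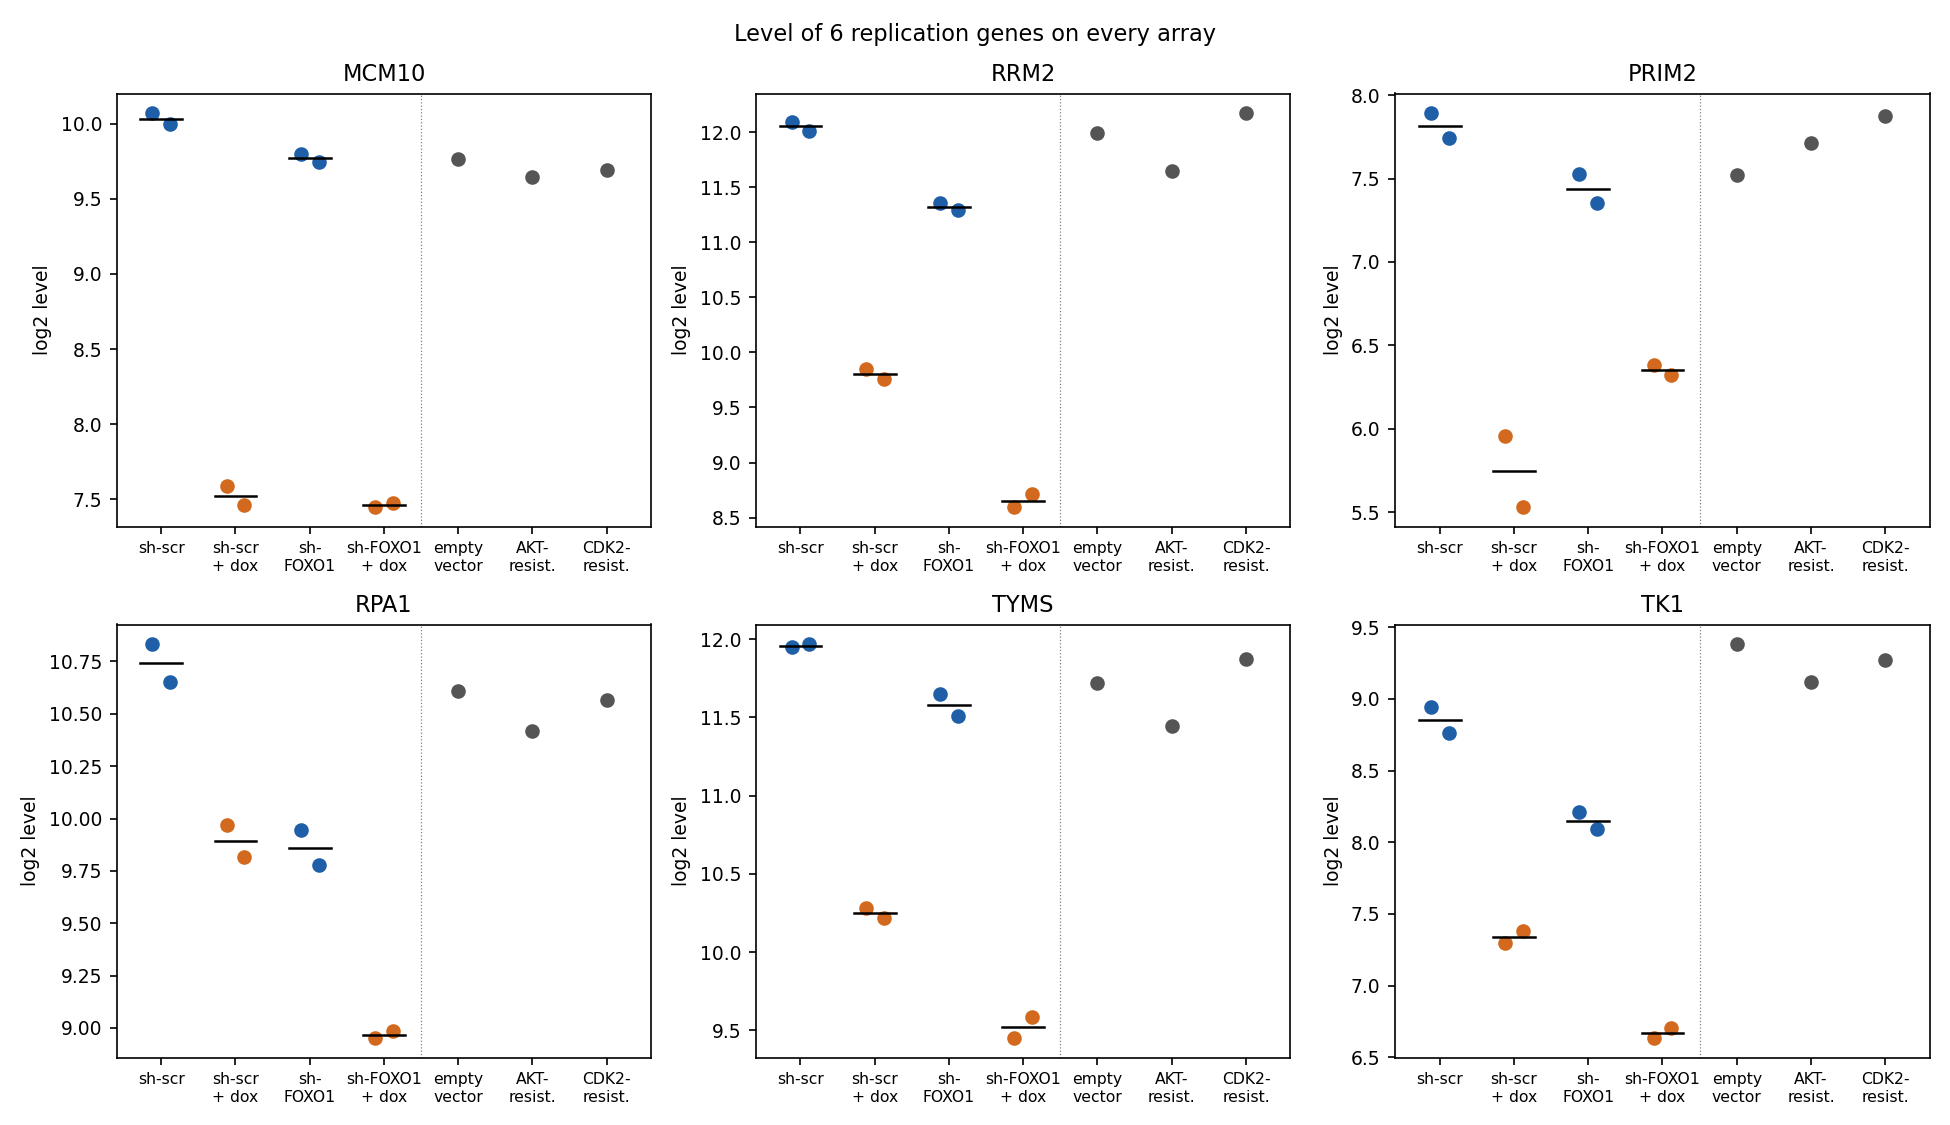
Log2 level (y axis, a scale of its own in each panel, not from 0) of 6 genes on every array, with points for arrays and lines for the mean of the 2 arrays of a group. Blue marks shRNA groups without and orange with doxycycline, and grey the plasmid arrays. For RRM2 the sh-FOXO1 arrays with doxycycline (8.60 and 8.71) lie below all others, and for PRIM2 the sh-scrambled arrays with doxycycline (5.96 and 5.53) do.

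**Figure D4:**
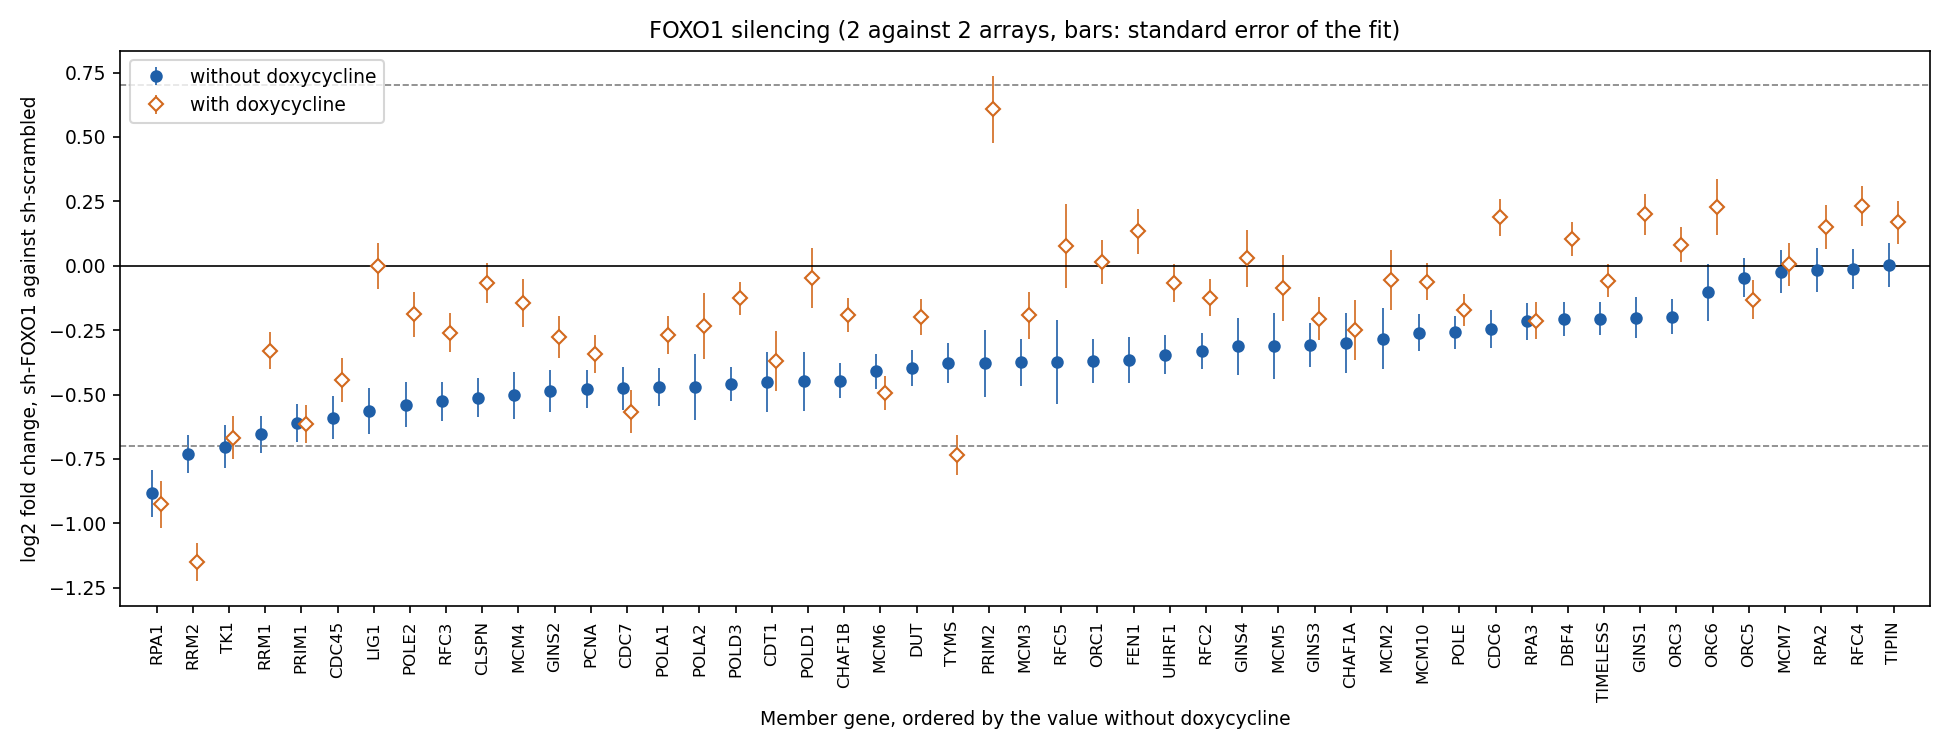
Log2 fold change of sh-FOXO1 against sh-scrambled cells for each of the 49 genes, without (filled circles) and with doxycycline (open diamonds), with bars for the standard error and dashed lines at ±0.7. Without doxycycline 48 of 49 circles lie below 0 (median −0.37), and with doxycycline 35 of 49 diamonds do (median −0.13).

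The interaction asks whether the change with doxycycline differed between sh-FOXO1 and sh-scrambled cells. Its median over the 49 genes was 0.21, and all tested genes had a median near 0 (−0.0046). Of the 49 values 42 were above 0 and 7 below it, where 50.8% of all tested genes were below 0. One gene, PRIM2, was called, as higher (1 of 49 beside 1.19% of all tested genes), and 0 were called lower, beside 2.24%. PRIM2 stood at 7.89 and 7.74 in sh-scrambled cells, 5.96 and 5.53 with doxycycline, 7.52 and 7.35 in sh-FOXO1 cells, and 6.38 and 6.32 in these with doxycycline. Its knockdown change was −2.07 ± 0.13 with sh-scrambled and −1.09 ± 0.13 with sh-FOXO1, and the difference was 0.98 ± 0.18 (limma adjusted p = 0.0113). Without doxycycline the sh-FOXO1 arrays were below the sh-scrambled arrays, and with it they were above them (0.61, limma adjusted p = 0.00731). The 2 sh-scrambled arrays with doxycycline were the pair of the 49 genes that lay farthest apart in that group. PRIM2 reached the 60th percentile on 10 arrays. Without replicate 2 of sh-FOXO1 the interaction was no longer called. Parts of PRIM2 are duplicated in the genome, so its probe set is uncertain.

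By the adjusted p alone 5 genes had a positive interaction (PRIM2, LIG1, FEN1, CLSPN and CDC6) and 1 a negative one, RRM2, beside 3.65% and 5.42% of all tested genes (limma). With replicate number as a block these counts became 16 and 2, for which no share of all tested genes was taken. LIG1 had 0.56 ± 0.12, FEN1 0.50 ± 0.12 and CDC6 0.43 ± 0.10, so their falls were smaller in sh-FOXO1 cells. Against sh-scrambled they differed there by −0.56, −0.37 and −0.25 without doxycycline, and by −0.00, 0.13 and 0.19 with it. FLI1 itself fell by −1.49 in sh-FOXO1 and −1.85 in sh-scrambled cells (interaction 0.37, limma adjusted p = 0.14). A changed response and a smaller knockdown thus cannot be told apart. CLSPN had 0.45 ± 0.11, but with doxycycline it lay at 4.88 to 5.00 in both backgrounds, under the array medians, so that its 2 changes differ by the starting levels (6.50 on both sh-scrambled arrays, 6.08 and 5.90 with sh-FOXO1) and are bounded by the low end of the scale. RRM2 had −0.42 ± 0.11 (limma adjusted p = 0.0398) and fell more in sh-FOXO1 cells, and TYMS had −0.36 ± 0.11 (limma adjusted p = 0.0823). PRIM1 (−0.00) and RPA1 (−0.04) had nearly the same change in both.

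The FOXO1 mutants were measured on 1 array each and have no replicate check, so their values are differences between single arrays without a test. On the AKT-resistant FOXO1 array 47 of 49 genes were below the empty vector array, against 53.4% of all tested genes, with a median of −0.24 beside −0.02. None was past 0.7 in either direction, 0 lower beside 1.11% and 0 higher beside 1.37% of all tested genes. PRIM1 differed most (9.63 with empty vector and 9.06 with the mutant, −0.57), followed by GINS4 (8.18 and 7.66, −0.51). RFC4 (−0.49), POLE2 (−0.48), TIMELESS (−0.47) and GINS1 (−0.46) came next. The 2 genes above 0 were PRIM2 (0.19) and CLSPN (0.14).

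On the CDK2-resistant FOXO1 array 24 of 49 genes were below empty vector, near the 52.3% of all tested genes, with a median of 0.02. Again 0 were past 0.7, beside 0.878% lower and 1.48% higher of all tested genes. The values ran from −0.30 for CDT1 to 0.35 for PRIM2. Set side by side, 42 of 49 genes were lower on the AKT-resistant than on the CDK2-resistant array, as were 50.6% of all tested genes, with a median difference of −0.25. FOXO1 itself was 2.46 above empty vector on the first array and 1.22 on the second, so that the mutant and its amount cannot be told apart. The 2 mutants share the empty vector array. PRIM1 stood at 9.87 on the CDK2-resistant array, RFC4 at 10.50 against 9.74 on the AKT-resistant array, and GINS1 at 10.37 against 9.62.

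Levels on the 3 plasmid arrays are given in the order empty vector, AKT-resistant and CDK2-resistant. Among the genes that fell most with EWS-FLI1 knockdown, MCM10 stood at 9.77, 9.65 and 9.70, CDC6 at 8.80, 8.70 and 8.72, and ORC1 at 7.84, 7.66 and 7.68. POLE2 stood at 8.84, 8.36 and 8.87, GINS1 at 10.09, 9.62 and 10.37, and PRIM2 at 7.52, 7.71 and 7.87. PRIM1, POLE2 and GINS1 were thus lowest on the AKT-resistant array and PRIM2 on the empty vector array. Of the genes that were lower with sh-FOXO1, RRM2 stood at 11.99, 11.65 and 12.17, TYMS at 11.72, 11.44 and 11.87, TK1 at 9.38, 9.12 and 9.27, and RPA1 at 10.61, 10.42 and 10.56. These 4 were all lowest on the AKT-resistant array. Besides RPA1, 6 genes were not called in the sh-scrambled knockdown. ORC3 stood at 9.32, 9.25 and 9.51, ORC5 at 9.26, 9.16 and 9.05, and MCM7 at 10.74, 10.30 and 10.71. CDC7 stood at 8.45, 8.17 and 8.66, LIG1 at 8.02, 7.70 and 7.92, and RPA3 at 9.98, 9.64 and 10.29. Of these 6, all but ORC5 were lowest on the AKT-resistant array.

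**Figure D5:**
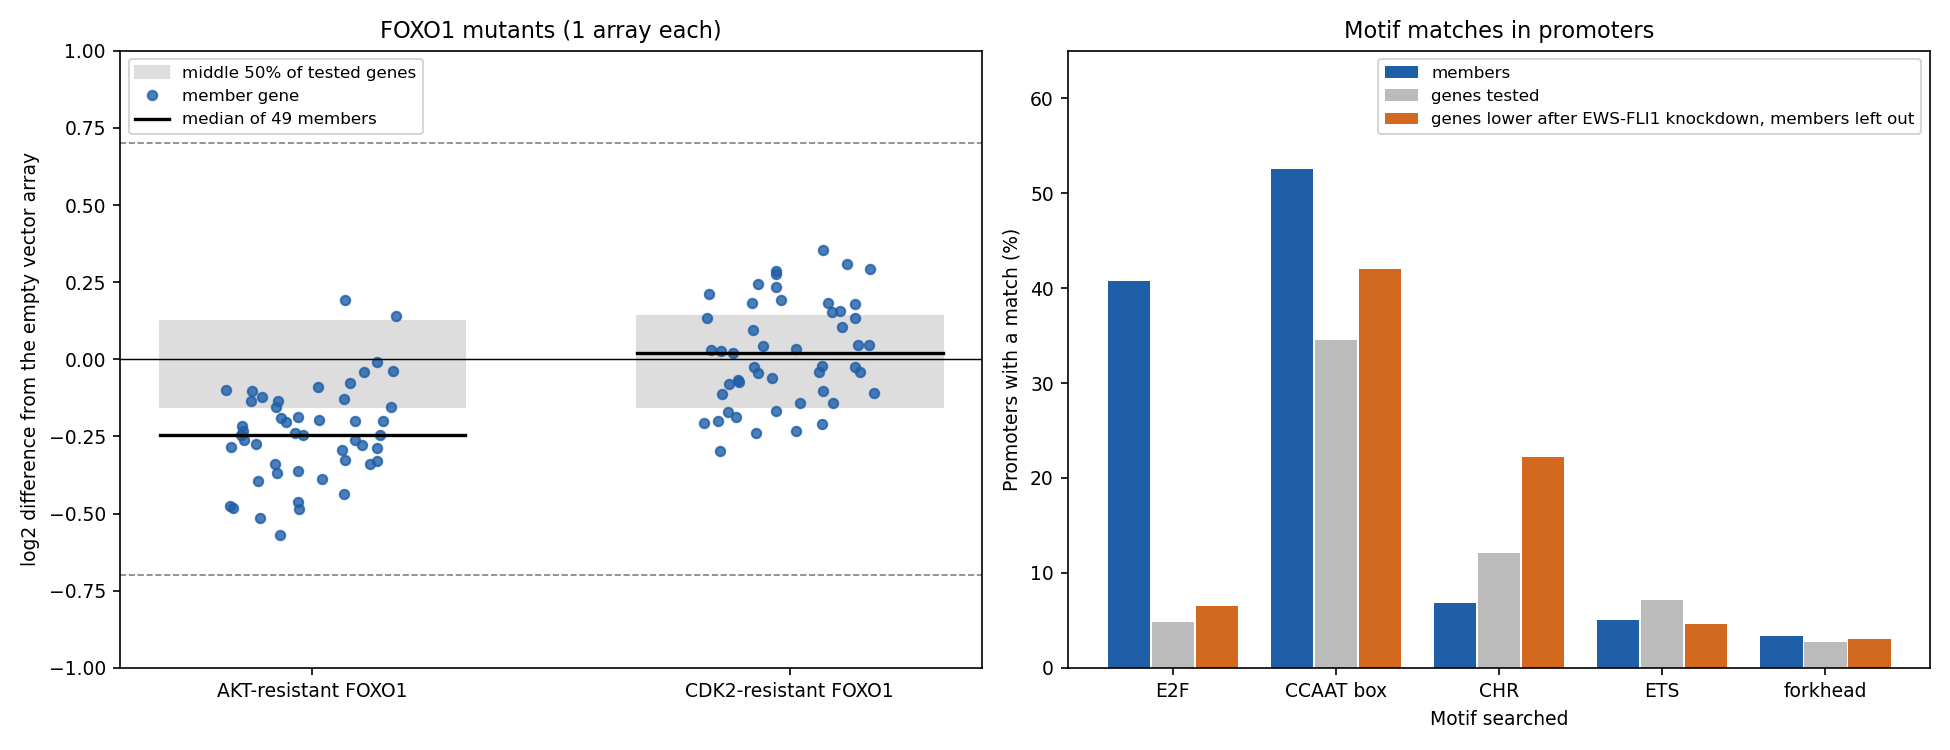
Left, log2 difference of each of the 49 genes (points) between a FOXO1 mutant array and the empty vector array, with the median as a line, the middle 50% of all tested genes in grey and dashed lines at ±0.7. The AKT-resistant points centre on −0.24 and the CDK2-resistant points on 0.02. Right, share of promoters with a match to each motif, where E2F matches were in 40.7% of the promoters of the 49 genes and 4.78% of those of tested genes.

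Genes besides the 49 were taken from 4 further lists. Of 24 tested other replication factors, 10 were called lower and 1 higher with EWS-FLI1 knockdown in sh-scrambled cells (median −0.98, limma), beside 6.31% lower and 6.98% higher of all tested genes. The largest falls were those of WDHD1 (−2.48), MCM8 (−2.00) and DSCC1 (−1.90). The same counts held in sh-FOXO1 cells, beside 5.48% and 6.06%. The 1 called higher was POLD4 (1.41 and 1.23), the small accessory subunit of polymerase delta. Further subunits of ORC, the polymerases and RFC in this list were called in neither background. In sh-scrambled cells they had −0.82 (ORC2), −0.33 (ORC4), −0.88 (POLD2), −0.85 (POLE3), −0.04 (POLE4) and −0.99 (RFC1). Against the same shares, of 29 G1/S regulators 12 were called lower and 1 higher in sh-scrambled cells (median −0.82), and 10 lower and 1 higher in sh-FOXO1 cells. The fitted falls of the repressors E2F8 (−3.00) and E2F7 (−2.46) and of the cyclin CCND2 (−2.35) were the largest, whereas the kinase CDK6 rose by 3.05 and 2.99. With doxycycline E2F8 (4.01 to 4.66) and CCND2 (4.72 to 4.80) lay under the array medians, and they reached the 60th percentile on the 7 arrays without it, so the sizes of their falls are uncertain. The same 7 arrays were the ones on which WDHD1 and CCNE2 reached it, and LIN9, also called lower in sh-scrambled cells, reached it on 1 array. E2F8, CCND2, WDHD1, CCNE2 and LIN9 were thus tested only because of arrays without doxycycline, where they are high. Their calls as lower with knockdown add no support. Again beside these shares, of 19 other nucleotide synthesis genes 5 and 4 were called lower, led by DCK (−1.83), UMPS (−1.47) and MTHFD1 (−1.32). Of 10 other chromatin assembly genes 3 and 2 were called lower, among them ASF1B (−1.46), HAT1 (−1.16) and DNMT1 (−1.07) in sh-scrambled cells. The medians of all 4 lists (−0.70 to −0.98) were nearer 0 than that of the 49 genes in that comparison. Whether called or not, 22 of 24, 26 of 29, 17 of 19 and 8 of 10 genes were below 0 there, against 54.4% of all tested genes. The 49 genes and these lists were chosen with earlier results of these data known, with subunits of the same complexes in both. Differences between their medians depend on that division and were not tested.

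In FOXO1 silencing without doxycycline 1 of the 24 replication factors and 2 of the 29 G1/S regulators were called lower, beside 1.5% of all tested genes, and with doxycycline 1 of 24 was lower, beside 2%, and 1 of 29 higher, beside 2.37%. TOP2A, the topoisomerase that unlinks copied chromosomes, was lower both without (−0.75) and with doxycycline (−0.95). The cyclin CCNE2 (−1.40) and E2F8 (−1.05) were lower without doxycycline (limma). E2F7 was higher with doxycycline (1.14) and was the 1 listed gene called in the interaction (1.55, limma adjusted p = 0.00012). None of these lists had a gene past 0.7 with either mutant.

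Other probe sets of the 49 genes mostly moved the same way. There were 93 probe sets in all, 26 genes had several, and 29 of the 44 not used reached the 60th percentile. All 29 were below 0 in sh-scrambled knockdown and 22 of them were past −1. The sizes differed by over 1.5 times for probe sets of GINS2 (−0.25 against −1.85), POLA2 (−0.28 against −1.50), POLD3 (−0.72 against −1.44) and GINS4 (−0.97 against −1.70), which were nearer 0 than those used, and for those of ORC5, GINS3 and RFC5, which were farther from it.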

How the data were processed

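Transcript levels of A673sh cells were read on 11 HG-U133 Plus 2 arrays (Affymetrix), which the sample labels place in 7 groups. The table the authors deposited holds log2 values of 54675 probe sets, 1 for each array, summarised from CEL files and normalized between arrays by a method not given in the sources used here. The base of the logarithm was taken from the range of the values (2.60 to 14.6). Array medians were 5.10 to 5.12 on plasmid and 5.14 to 5.17 on shRNA arrays. Number of arrays limits the precision.

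Probe sets with 1 gene symbol were kept, the one with the highest mean stood for each gene, and genes at or above the 60th percentile on 1 array or more were tested. A model of 7 group means was fitted with limma 3.58.1 (R 4.3.3) and moderated (4 residual and 5.11 prior degrees of freedom). The fit was tested on simulated data first. The single-array groups were described without a test. Replicate numbers paired the arrays: differences between replicates 1 and 2 correlated across all genes between every pair of shRNA groups (r = 0.31 to 0.57), so a fit with replicate number as a block was added. Promoters came from RefSeq and were searched with Python 3.11.15. MCM4, MCM5, GINS4, POLD3, RPA2 and RPA3 were not matched.

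The 49 genes, the other gene lists and the tests were chosen with earlier results of these data known. All 49 genes could be named. Values on every array were given for the 8 that changed most in the sh-scrambled knockdown, those called in FOXO1 silencing or the interaction, and those not called in the knockdown. Of each role the largest and smallest change were named, and of each other list the 3 largest calls and any call against its majority, by fold change alone. Alternatives covered the choice of probe set, filter, limit, normalization, block and each left-out array.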

Additional observations from a re-analysis of the deposited data

Results flagged for a closer look

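The change of PRIM2 with doxycycline differed between the 2 backgrounds by the interaction term of the model. It was −2.07 with sh-scrambled and −1.09 with sh-FOXO1, a difference of 0.98 on the log2 scale (limma adjusted p = 0.0113), and PRIM2 was the only one of the 49 genes called in this comparison. Leaving out 1 array at a time gave a lowest value of 0.771 and a highest of 1.198.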

How the results depend on the processing

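Each comparison of shRNA groups was run under 19 alternatives, 8 of which left out 1 array, and each mutant under 8. No called value changed direction, and the median for CDK2-resistant FOXO1 lay between −0.03 and 0.05. The sh-scrambled knockdown called 39 to 49 of the 49 genes lower and the sh-FOXO1 knockdown 34 to 49, and leaving out an array gave 39 to 43 and 35 to 38. FOXO1 silencing depended on the limit. By the adjusted p alone (limma) 14 genes were lower with doxycycline, 35 without it and 5 higher in the interaction, and with the limits of the 2 kinds of comparison exchanged these were 1, 0 and 0. Leaving out an array gave 2 to 4, 1 to 4 and 0 to 1. TK1 without doxycycline also lost its call in 4 of the other alternatives. With the replicate block the numbers of called genes were 42, 36, 3, 3 and 1, as in the fit without it, and no call of the 49 genes changed under the paired fit. For AKT-resistant FOXO1, 2 genes (PRIM1 and GINS4) were lower at a limit of 0.5. Past 0.7 were 3 (PRIM1, RFC4 and TIMELESS) against the mean of the 3 arrays without doxycycline and without a FOXO1 construct, empty vector and both sh-scrambled. That mean joins plasmid and shRNA transfections. For neither count was the share of all tested genes taken, so they cannot be read as particular to the 49 genes.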
